A study of Mus musculus with 10 samples.

Results

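The 39 genes described here copy DNA or make its building blocks. They were chosen as a fixed list of symbols, and each was read from its brightest non-control probe whose RefSeq accession maps to the symbol. All 39 had such a probe, against 20465 named genes with complete values on the 10 arrays, and all 39 were among the 14204 genes tested. Every member was well above background on all 10 arrays, so none was lost to the filter on dim genes. No measured value was used in choosing them, although the list was drawn up with earlier results of these arrays known.

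Copying a chromosome starts before S phase, when the origin recognition complex, CDC6 and CDT1 load the ring-shaped MCM helicase onto DNA. CDC45 and the GINS complex then switch the helicase on, primase and DNA polymerase alpha lay down primers, and polymerases delta and epsilon extend them, held to the template by the sliding clamp PCNA that the RFC complex loads. Ribonucleotide reductase, thymidylate synthase and thymidine kinase supply the deoxynucleotides. Transcription of many of these genes is timed to the G1/S boundary by E2F factors and their RB family partners. Erythroid progenitors are known for fast, tightly linked cycling and differentiation, and neutrophil precursors leave the cycle as they mature.

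The arrays profile EML-C1, an established line of mouse blood progenitors kept in medium conditioned with stem cell factor, from which erythroid as well as myeloid cells can be raised. Day 0, before any treatment, gave 1 array. The EPO arm received 10 ng/ml erythropoietin. The IL-3/GM-CSF arm received all-trans retinoic acid at 10 µM beside 10 ng/ml IL-3, with 10 ng/ml GM-CSF added only after day 3, and the combined arm received both sets of factors. At day 3 each arm was sorted into a Sca1-low and a Sca1-high fraction, and at day 6 each gave 1 array with no Sca1 fraction in the labels. Total RNA was read on 1-colour 60-mer arrays. Each of the 10 conditions had 1 array analysed here, although the design text speaks of duplicates, so nothing measures the spread between repeat cultures of a condition. All arrays come from 1 cell line and share the 1 untreated control. Levels are log2 processed signals relative to the 75th percentile of the array, and a difference of 1 is 2-fold. In bulk RNA, fewer cells of a type and less RNA per cell cannot be told apart, and the same holds for the share of cells in S phase and the transcript level per cycling cell.

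Markers describe the sort and the cell types. Ly6a, which encodes Sca1, lay between -4.25 and -2.80 in the 3 Sca1-low arrays and between 1.89 and 4.76 in the Sca1-high arrays. At day 6 it lay at -2.57 under EPO, at 4.55 in the IL-3/GM-CSF arm and at 3.99 in the combined arm. Untreated cells had all 8 progenitor markers, all 8 mast cell markers and 7 of 8 erythroid markers above background. So were 8 of 10 granulocyte and monocyte markers and 5 of 6 lymphoid markers, and this count does not tell cell types apart. The summed level of the erythroid markers was 8.62 to 9.73 in the Sca1-low arrays, 5.31 to 6.28 in the Sca1-high arrays, and 10.09, 2.16 and 5.14 at day 6 in the EPO, IL-3/GM-CSF and combined arms. At day 6 of the IL-3/GM-CSF arm only 4 of 8 erythroid markers were above background. The intensity at the 75th percentile was 309 for EPO Sca1-low and 478 to 736 for the other arrays, and the extraction software marked 5 of the 6 day 3 arrays for evaluation.

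The promoters of several members carry the letters that E2F factors are known to bind, which makes their start sites worth seeing before the expression values. RefSeq promoter windows of GRCm38.p6, 250 bases before to 50 after the start, were found for 32 of the 39 members. The words TTTCCCGC, TTTCGCGC, TTTGCCGC and TTTGGCGC were searched on both strands, and none of them contains CCAAT or TTTGAA, the other words searched. Of the 32 members 13, or 40.6%, held at least 1 E2F word, against 4.24% of the 11377 tested genes with a window and 1 of 27 genes of a mitosis list. The lines that follow give the 250 bases before the start of Cdc6 and Orc1 and 30 bases around the first word of Cdt1, which are the 3 members with the largest fraction difference among those with a word, and 30 bases of Mcm5 and Mcm6, where words of opposite strand overlap. Capitals mark the E2F words, which can appear as their reverse complement.
Cdc6, chr11:98907901-98908150, plus strand: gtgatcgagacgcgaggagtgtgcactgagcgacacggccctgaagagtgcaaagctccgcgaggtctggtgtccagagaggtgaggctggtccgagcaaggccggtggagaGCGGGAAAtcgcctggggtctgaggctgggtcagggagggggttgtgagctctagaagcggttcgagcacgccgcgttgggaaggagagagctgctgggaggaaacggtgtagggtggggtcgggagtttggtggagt
Orc1, chr4:108579204-108579453, plus strand: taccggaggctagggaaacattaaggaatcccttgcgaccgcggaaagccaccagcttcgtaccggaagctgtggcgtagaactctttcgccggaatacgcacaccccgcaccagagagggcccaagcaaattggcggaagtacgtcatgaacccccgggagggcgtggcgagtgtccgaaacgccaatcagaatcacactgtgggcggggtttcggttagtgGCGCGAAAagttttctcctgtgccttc
Cdt1, chr8:122568035-122568064, plus strand: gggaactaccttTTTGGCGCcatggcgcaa
Mcm5, chr8:75109347-75109376, plus strand: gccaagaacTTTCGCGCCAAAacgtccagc
Mcm6, chr1:128359795-128359824, minus strand: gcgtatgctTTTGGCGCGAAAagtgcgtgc

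The E2F word begins 138 bases before the start in Cdc6 and 27 bases before it in Orc1. The mitotic CHR word TTTGAA was found in 5 of the 32 member windows (15.6%), against 15.4% of all tested genes and 19 of 27 mitosis genes (70.4%). CCAAT was found in 20 member windows (62.5%), against 42.6% of all tested genes. A match is a description of these letters and not a measured binding site. Members with an E2F word included Cdc6, which had the largest expression difference, but not a larger median, with no test made: their median Sca1-low minus Sca1-high difference was 0.35, with a range of -0.03 to 1.32 over 13 genes, and it was 0.61, with a range of 0.10 to 1.00, over the 19 members without a word.

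The first comparison asks how Sca1-low and Sca1-high cells of the same culture differed at day 3. Replication genes were mostly higher in the Sca1-low fraction, with 38 of the 39 mean differences above 0 against 60.1% of all genes. Their median was 0.49, against 0.17 for all genes tested. Cdc6 rose by 1.32 (SE 0.22, 2.50-fold, adjusted p = 0.029) and Prim2 by 0.99 (SE 0.20, 1.99-fold, adjusted p = 0.046) in limma over the 3 treatment pairs, with Benjamini-Hochberg adjustment over all genes. The Prim2 call was lost under quantile normalization (adjusted p = 0.054), median centring (0.058), with no filter on dim genes (0.078) and without the EPO, IL-3/GM-CSF or combined pair (0.054, 0.16 and 0.31). The Cdc6 call was lost with no filter on dim genes (0.052) and without the IL-3/GM-CSF or combined pair (0.12 and 0.22). Both arrays of each pair shared a slide. These 2 calls are 5.13% of the members, near the background of 4.09% of all genes called higher, so the count of calls is no result about the list. No member was called lower, against 6.98% of all genes, and no member was lower at an unadjusted p under 0.05. At that unadjusted threshold 13 members (33.3%) were higher, against 17.0% of all genes. In every treatment 25 members (64.1%) were higher in the Sca1-low fraction, against 34.0% of all genes. For 21 members (53.8%) all 3 Sca1-low arrays lay above all 3 Sca1-high arrays, against 21.4% of all genes, and for none all 3 lay below, against 14.4%. No member was lower in every treatment, against 21.0% of all genes. The shares of all genes are an unlike background, since 71.0% of tested genes had mean levels below the members' lower quartile of 2.64. Shares over genes of like brightness were not taken for these counts.

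Erythroid markers moved with this contrast, 8 of 8 being called higher in the Sca1-low fraction with a median of 3.46, and 5 of 8 progenitor markers, 4 of 8 mast cell markers, 3 of 10 granulocyte and monocyte markers and 3 of 6 lymphoid markers were called lower. The progenitor list holds Ly6a, the gene of the sorted antigen, so its count and sum are partly set by the sort, and Kit is in both the progenitor and the mast cell list. Over the Sca1-low and Sca1-high arrays the summed levels ranged from 3.27 to 3.57 and from 6.39 to 7.48 for progenitor markers, from 5.09 to 5.86 and from 7.46 to 9.46 for mast cell markers, from 6.87 to 8.61 and from 8.92 to 9.44 for granulocyte and monocyte markers, and from 2.97 to 4.36 and from 4.03 to 4.45 for lymphoid markers. Their part in the replication gene differences was not tested. Without the IL-3/GM-CSF pair no gene of any list was called in this contrast. Brightness also moved with it: the 3339 other genes whose mean level lay between the members' quartiles of 2.64 and 5.59 had medians of 0.24 under EPO, 0.12 in the IL-3/GM-CSF arm and 0.35 in the combined arm. The members' own medians were 0.57, 0.22 and 0.63, which leaves 0.33, 0.10 and 0.28 above genes as bright.

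**Figure D1:**
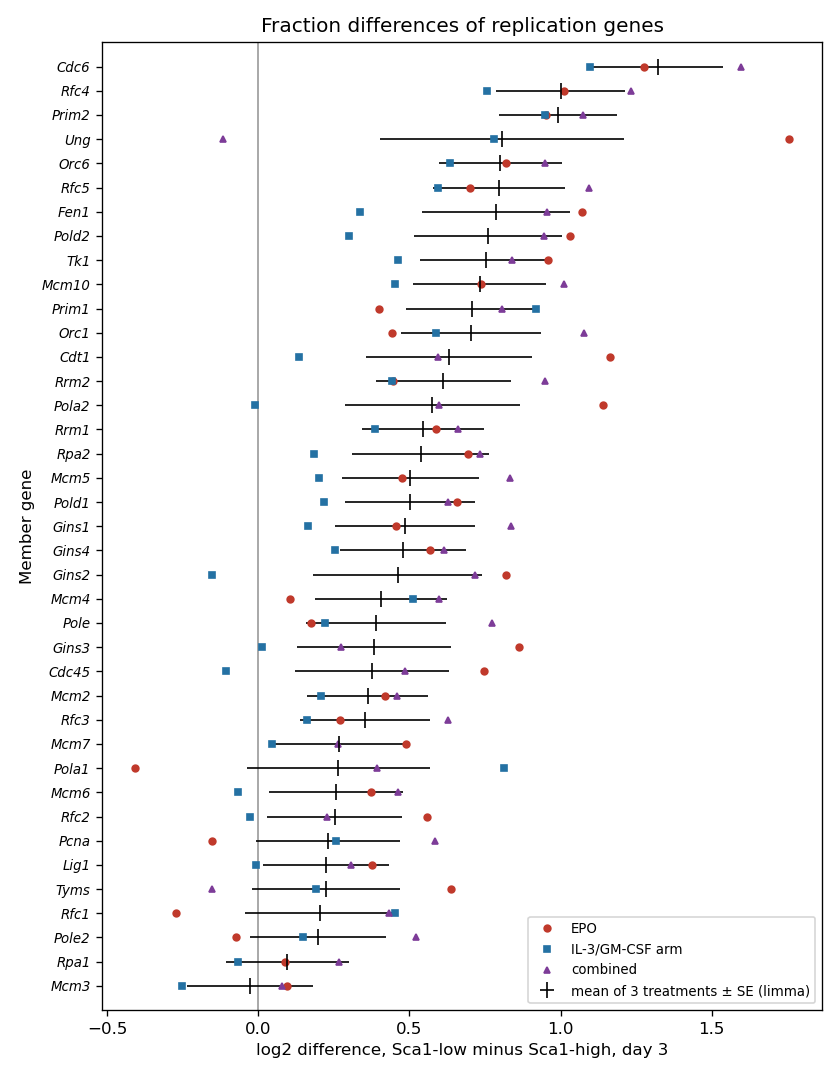
Sca1-low minus Sca1-high log2 difference at day 3 for each of the 39 members, sorted by the mean. Points are single pairs of arrays of 1 treatment, ticks and bars are the limma mean and SE over 3 pairs, and Cdc6 at the top has all 3 pairs between 1.1 and 1.60 while Mcm3 at the bottom has a mean of -0.03.

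Among the licensing genes, Cdc6, the loader of the MCM ring, had the largest fraction difference. Cdc6 lay at 2.03 in untreated cells, 3.31 and 2.04 in EPO Sca1-low and Sca1-high cells, 2.75 and 1.65 in those of the IL-3/GM-CSF arm, 2.51 and 0.91 in those of the combined arm, and 3.09, 1.73 and 1.73 at day 6 in the same order of arms. The fractions did not overlap, and the EPO Sca1-low and EPO day 6 arrays were the highest. A dimmer Cdc6 probe ran in parallel (r = 0.98 over the 10 arrays) and gave pair differences of 0.98, 0.75 and 1.23 where the brighter probe gave 1.28, 1.1 and 1.60. Orc6, a small subunit of the origin recognition complex, lay at 4.03 in untreated cells, 4.63 and 3.81 in EPO Sca1-low and Sca1-high cells, 4.63 and 3.99 in the IL-3/GM-CSF arm, 4.59 and 3.64 in the combined arm, and 4.92, 4.17 and 4.12 at day 6. Its 3 Sca1-low values were nearly equal and all above the Sca1-high values (mean difference 0.80, SE 0.20, adjusted p = 0.078 in limma). Orc1, the ATPase subunit that opens the complex's work in G1, lay at 0.14 in untreated cells, 0.34 and -0.11 under EPO, 0.45 and -0.14 in the IL-3/GM-CSF arm, 0.32 and -0.75 in the combined arm, and 0.93, -0.27 and -0.13 at day 6. The combined Sca1-high array was the lowest and EPO day 6 the highest.

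None of the MCM helicase genes was called. Mcm3 had the narrowest range of all members and the only mean difference below 0. Mcm3 lay at 6.62 in untreated cells, 6.81 and 6.72 in EPO Sca1-low and Sca1-high cells, 6.38 and 6.63 in the IL-3/GM-CSF arm, 6.36 and 6.28 in the combined arm, and 6.62, 6.24 and 6.52 at day 6. Mcm6 lay at 7.55 in untreated cells, 7.85 and 7.47 under EPO, 7.80 and 7.86 in the IL-3/GM-CSF arm, 7.75 and 7.29 in the combined arm, and 7.85, 7.60 and 7.80 at day 6. In both genes the fractions overlapped and the IL-3/GM-CSF pair ran the other way. Mean differences of Mcm2, Mcm4, Mcm5 and Mcm7 were 0.36, 0.40, 0.50 and 0.27, with adjusted p from 0.21 to 0.43. Cdt1, the licensing factor held in check by geminin, differed by 1.16 under EPO, by 0.13 in the IL-3/GM-CSF arm and by 0.60 in the combined arm.

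Of the 6 helicase activation genes all had mean differences above 0, with a median of 0.47, and none was called. Mcm10, which helps the activated helicase to move, lay at 4.17 in untreated cells, 4.44 and 3.71 in EPO Sca1-low and Sca1-high cells, 4.37 and 3.92 in the IL-3/GM-CSF arm, 4.29 and 3.28 in the combined arm, and 4.63, 3.80 and 4.00 at day 6. Its fractions did not overlap (mean difference 0.73, SE 0.22, adjusted p = 0.11 in limma). Gins2, a subunit of the GINS ring, lay at 2.08 in untreated cells, 3.12 and 2.31 under EPO, 2.33 and 2.48 in the IL-3/GM-CSF arm, 2.22 and 1.51 in the combined arm, and 2.72, 1.98 and 2.09 at day 6. Its fractions overlapped, since the IL-3/GM-CSF pair ran the other way by -0.15. Cdc45, which joins GINS on the helicase, also ran the other way in that arm, by -0.11, and was 0.75 higher in the Sca1-low cells under EPO. Gins3 was the only member lowest on the untreated array (7.82% of all genes were), at 6.13, and reached 7.41 in EPO Sca1-low cells.

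All 8 polymerase and primase genes had mean differences above 0, with a median of 0.54. Prim2, the large primase subunit, lay at 3.13 in untreated cells, 3.71 and 2.76 in EPO Sca1-low and Sca1-high cells, 3.84 and 2.89 in the IL-3/GM-CSF arm, 3.54 and 2.46 in the combined arm, and 4.08, 2.79 and 2.97 at day 6. Its 3 pair differences were 0.95, 0.95 and 1.08, the most even of the large differences, and the fractions did not overlap. Prim1, the catalytic primase subunit, differed by 0.71 on average (SE 0.22, adjusted p = 0.11). Pold2, an accessory subunit of polymerase delta, lay at 2.05 in untreated cells, 3.48 and 2.45 under EPO, 2.66 and 2.36 in the IL-3/GM-CSF arm, 2.80 and 1.85 in the combined arm, and 3.03, 1.18 and 1.79 at day 6. Pola2, the B subunit of polymerase alpha, lay at -0.66 in untreated cells, 0.37 and -0.77 under EPO, -0.37 and -0.36 in the IL-3/GM-CSF arm, -0.23 and -0.83 in the combined arm, and -0.11, -1.56 and -1.10 at day 6. Both Pold2 and Pola2 were highest in EPO Sca1-low cells and lowest at day 6 of the IL-3/GM-CSF arm, and the fractions overlapped for Pola2 and not for Pold2. Pola1, the catalytic subunit of polymerase alpha, went against its partner under EPO, with -0.41 there, 0.81 in the IL-3/GM-CSF arm and 0.39 in the combined arm. It was the only member highest on the untreated array (8.91% of all genes were), at 3.47.

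Rfc4 and Rfc5 had the largest fraction differences among the clamp and clamp loader genes, and none of the 6 was called. Rfc4 lay at 4.17 in untreated cells, 4.99 and 3.98 in EPO Sca1-low and Sca1-high cells, 5.21 and 4.46 in the IL-3/GM-CSF arm, 5.14 and 3.91 in the combined arm, and 5.65, 4.52 and 4.53 at day 6. The fractions did not overlap, and the mean difference of 1.00 (SE 0.21) missed the threshold at an adjusted p of 0.054 in limma (0.031 under normexp). Its dimmer probe ran in parallel (r = 0.98). Rfc5 lay at 5.00 in untreated cells, 5.84 and 5.14 under EPO, 5.41 and 4.81 in the IL-3/GM-CSF arm, 5.40 and 4.31 in the combined arm, and 5.53, 4.49 and 4.62 at day 6, again without overlap of the fractions. For Rfc1, Rfc2 and Rfc3 the mean differences were 0.20, 0.25 and 0.35, with no overlap of the fractions for Rfc3. Rfc1, the large subunit, was lowest in EPO Sca1-low cells at 3.41, where many members were highest, and highest at day 6 of the IL-3/GM-CSF arm at 4.69. Pcna, the clamp itself, differed by -0.15 under EPO, by 0.26 in the IL-3/GM-CSF arm and by 0.58 in the combined arm.

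Among the genes for strand binding, joining and repair, Ung had the widest range of all 39 members. Ung encodes the uracil-DNA glycosylase that removes uracil from DNA. Ung lay at 5.62 in untreated cells, 7.06 and 5.31 in EPO Sca1-low and Sca1-high cells, 5.67 and 4.89 in the IL-3/GM-CSF arm, 4.53 and 4.64 in the combined arm, and 6.79, 5.09 and 5.20 at day 6. The fractions overlapped because the combined pair was low in both fractions (mean difference 0.81, SE 0.40, adjusted p = 0.25). In Sca1-low cells the combined arm was 2.54 below the EPO arm and 1.15 below the IL-3/GM-CSF arm. The summed erythroid markers of these Sca1-low arrays were 9.73 for EPO, 8.62 for IL-3/GM-CSF and 8.73 for the combination, and their part in the Ung values was not tested. Fen1, the flap nuclease that trims Okazaki fragments, lay at 6.09 in untreated cells, 7.39 and 6.32 under EPO, 6.55 and 6.21 in the IL-3/GM-CSF arm, 6.46 and 5.51 in the combined arm, and 7.0, 5.90 and 6.14 at day 6. Fen1 fractions did not overlap (mean difference 0.79, SE 0.24, adjusted p = 0.11). Rpa1, the large subunit of the single-strand binding protein, was among the steadiest members. It lay at 5.78 in untreated cells, 5.72 and 5.63 under EPO, 5.95 and 6.02 in the IL-3/GM-CSF arm, 5.68 and 5.41 in the combined arm, and 6.04, 5.80 and 5.87 at day 6, with overlapping fractions. Its partner Rpa2 differed by 0.54, and Lig1, the ligase that seals Okazaki fragments, by 0.23.

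The 4 deoxynucleotide supply genes had a median difference of 0.58, none of them was called, and 3 were higher at an unadjusted p under 0.05, against 17.0% of all genes. Tk1, the cytosolic thymidine kinase of S phase, lay at 4.44 in untreated cells, 5.18 and 4.22 in EPO Sca1-low and Sca1-high cells, 4.79 and 4.32 in the IL-3/GM-CSF arm, 4.60 and 3.76 in the combined arm, and 4.89, 4.39 and 4.36 at day 6. Its fractions did not overlap (mean difference 0.75, SE 0.22, adjusted p = 0.098). Rrm1 and Rrm2, the subunits of ribonucleotide reductase, differed by 0.54 and 0.61, with no overlap. Tyms, thymidylate synthase, was lowest in combined Sca1-low cells at -0.44 and highest at EPO day 6 at 1.09, so its combined pair ran the other way, by -0.15, as that of Ung did.

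The size of the fraction difference varied between the 3 treatment pairs, and with the processing. Over the settings run, the members' median ranged from 0.28 to 0.59 under EPO, from 0.13 to 0.25 in the IL-3/GM-CSF arm and from 0.36 to 0.63 in the combined arm. Pair differences were above 0 for 35 members under EPO, 31 in the IL-3/GM-CSF arm and 37 in the combined arm, against 56.8%, 54.0% and 63.0% of all genes. At least 2-fold higher in the Sca1-low fraction were 7 members under EPO, 1 in the IL-3/GM-CSF arm and 6 in the combined arm, with backgrounds of 12.3%, 9.27% and 11.8%. As shares of the members these are 17.9%, 2.56% and 15.4%. The EPO and combined shares are only a little above their backgrounds, and the IL-3/GM-CSF share is below its own. No member was 2-fold lower, against 14.7%, 13.9% and 12.0% of all genes. Cdc6 passed 2-fold in every arm. Cdt1, Pola2, Pold2, Fen1 and Ung did so only under EPO, and Orc1, Mcm10, Prim2 and Rfc5 only in the combined arm, while Rfc4 did so in both. Of the 14 members with mixed signs, 8 ran below 0 in the IL-3/GM-CSF arm, 4 under EPO and Ung and Tyms in the combined arm. With 1 array a condition, differences between treatments in the fraction effect were not tested.

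The next comparison sets each treated array beside the untreated one. Members were above untreated cells in EPO Sca1-low cells (median 0.54, 31 of 39 above 0) and at EPO day 6 (median 0.61, 37 of 39), and below them in combined Sca1-high cells (median -0.45, 3 of 39 above 0). All genes had medians of 0.18, 0.16 and -0.19 on these arrays, with 56.0%, 57.7% and 36.3% above 0. Medians of the members were -0.10 for EPO Sca1-high, 0.28 and -0.01 for Sca1-low and Sca1-high of the IL-3/GM-CSF arm, 0.20 for combined Sca1-low, and -0.22 and -0.08 at day 6 for IL-3/GM-CSF and the combination. EPO day 6 and the untreated array share a slide, as does combined day 6, whereas the other treated arrays sit on other slides, so slide and condition cannot be told apart for those. Against genes as bright, EPO Sca1-low stood 0.28 and EPO day 6 0.30 higher and combined Sca1-high 0.14 lower.

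**Figure D2:**
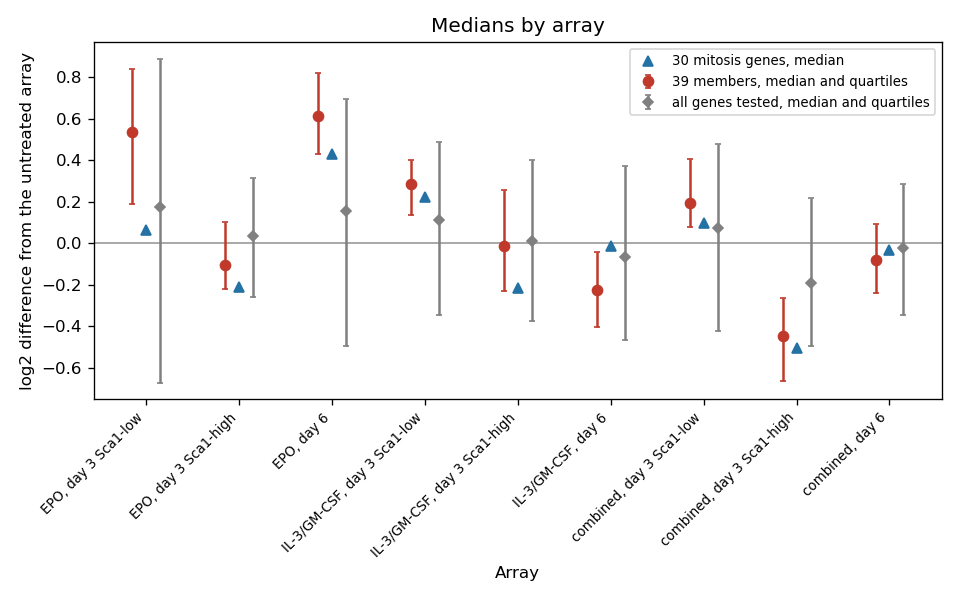
Log2 difference from the untreated array on each of the 9 treated arrays. Circles and bars are the median and quartiles of the 39 members, diamonds those of all genes tested and triangles the median of 30 mitosis genes. The members' medians are highest for EPO Sca1-low (0.54) and EPO day 6 (0.61) and lowest for combined Sca1-high (-0.45), and all genes spread far wider than the members.

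Few single members were 2-fold away from untreated cells. In EPO Sca1-low cells 8 members (20.5%) were at least 2-fold higher, against 18.5% of all genes, namely Pold2 (1.43), Ung (1.44), Fen1 (1.30), Cdc6 (1.28), Gins3 (1.28), Cdt1 (1.13), Gins2 (1.04) and Pola2 (1.02). At EPO day 6 there were 4 (10.3%), against 11.6%, namely Rfc4 (1.47), Ung (1.17), Cdc6 (1.06) and Gins3 (1.02). Both shares are near the background. The others were Rfc4 in IL-3/GM-CSF Sca1-low cells (1.04, background 7.90%), Ung in combined Sca1-low cells (-1.09, background 11.8%) and Cdc6 in combined Sca1-high cells (-1.12, background 6.50%). Over the 10 arrays 28 of 39 members (71.8%) had a range of at least 2-fold, against 78.7% of all genes.

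The order of the arrays was shared by many members. The highest array was EPO Sca1-low for 18 members and EPO day 6 for 18, against 25.8% and 18.8% of all genes. For 24 members (61.5%) both of these lay above the other 8 arrays, against 20.2% of all genes. The lowest array was combined Sca1-high for 24 members (61.5%), against 22.9%, and IL-3/GM-CSF day 6 for 8, against 14.8%. These counts were taken under the 75th percentile scaling alone. EPO Sca1-low and EPO day 6 had the lowest 75th percentile intensities (309 and 478). Members were also brighter than most genes, with a median level of 4.48 against 0.67 for all genes tested. The part of brightness and scaling in the order of the arrays was not tested.

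**Figure D3:**
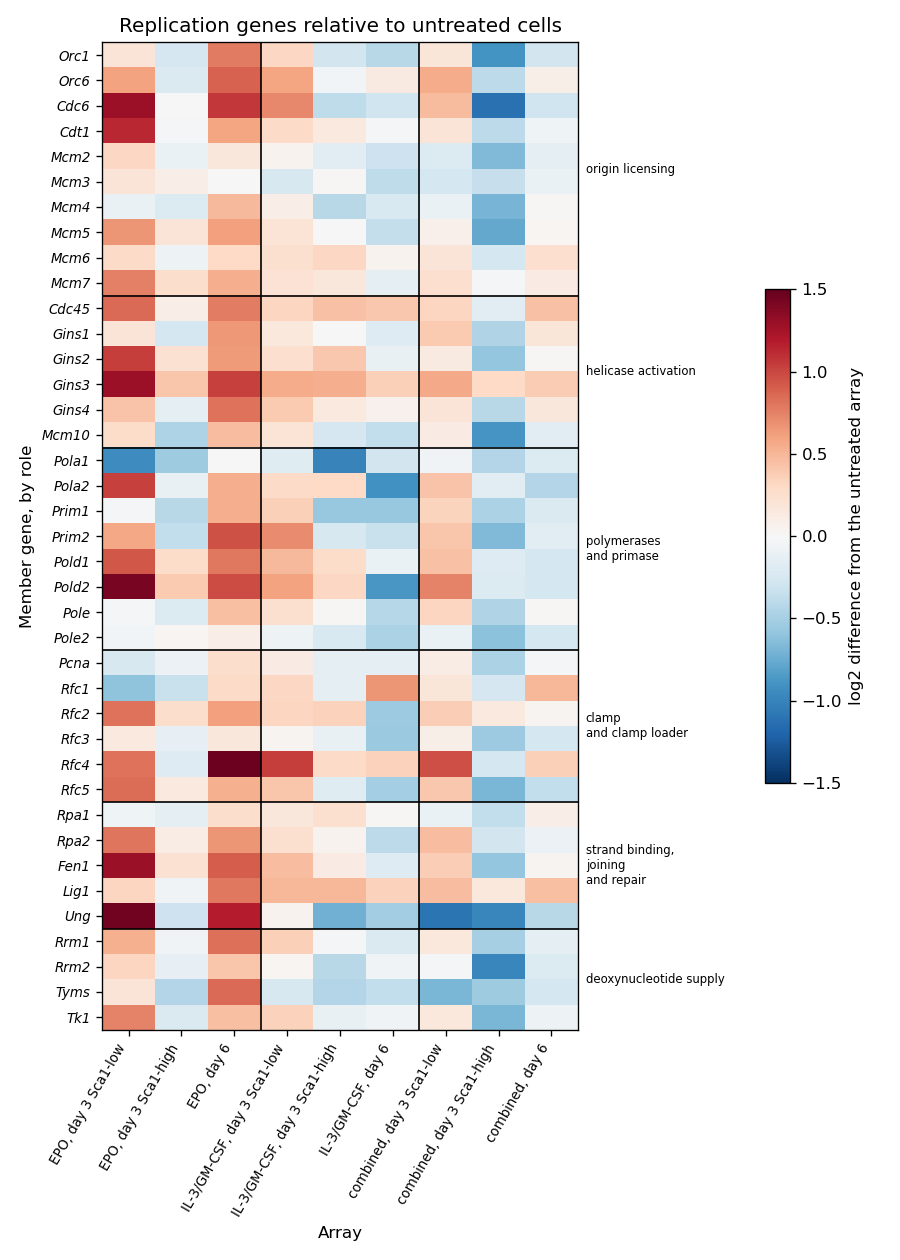
Log2 difference from the untreated array (colour) for the 39 members in rows, grouped by role, and the 9 treated arrays in columns, grouped by arm. Red columns are EPO Sca1-low and EPO day 6 (medians 0.54 and 0.61), the blue column is combined Sca1-high (median -0.45), and Ung in combined Sca1-low (-1.09) and Pola1 and Rfc1 in EPO Sca1-low go against their columns.

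The largest median differences between arms were those of EPO at day 6, though not both of them under median centring. In Sca1-low cells at day 3 the median was 0.26 for EPO minus IL-3/GM-CSF and -0.35 for the combination minus EPO, and under quantile normalization these were 0 and -0.04. In Sca1-high cells it was -0.38 for the combination minus EPO and -0.47 for the combination minus IL-3/GM-CSF. All genes had -0.22 and -0.21 there. The median of EPO minus IL-3/GM-CSF in Sca1-high cells was -0.01. EPO day 6 was above IL-3/GM-CSF day 6 in 38 of 39 members, the exception being Rfc1 at -0.38, with a median of 0.75 against 0.21 for all genes (58.1% above 0). At least 2-fold higher under EPO were 14 members (35.9%), against 16.3% of all genes, led by Pold2 (1.85), Ung (1.70), Pola2 (1.45), Cdc6 (1.36) and Prim2 (1.29). Combined day 6 lay below EPO day 6, on the same slide, in 38 of 39 members, with a median of -0.62 against -0.16 for all genes (43.1% above 0). At least 2-fold lower there were 8 members (20.5%), against 13.1% of all genes, among them Ung (-1.59), Cdc6 (-1.36), Pold2 (-1.24) and Prim2 (-1.12). Combined and IL-3/GM-CSF day 6 were close, with a median of 0.13 and no member 2-fold apart, where 4.51% of all genes were 2-fold higher and 2.89% lower in the combined arm. These 3 differences share arrays and are not independent. Under quantile normalization the day 6 medians were 0.58 for EPO minus IL-3/GM-CSF and -0.31 for the combination minus EPO. Median centring gave 0.88 and -0.53. At day 3 it gave -0.56 for the combination minus EPO in Sca1-low cells. For the combination minus IL-3/GM-CSF in Sca1-high cells it gave -0.59. The 2-fold counts given here are without quantile normalization or median centring. IL-3/GM-CSF day 6 sat on another slide than EPO and combined day 6, so slide and arm cannot be told apart there. The same holds at day 3 for the combined arm against either other arm, in both fractions. At day 6 the granulocyte and monocyte markers summed to 6.88 under EPO, 11.19 in the IL-3/GM-CSF arm and 10.86 in the combined arm, and their part in the differences was not tested.

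From day 3 to day 6 the members' change depended on the arm and on the fraction they were set against. In every arm the day 6 array sat on another slide than the day 3 arrays, so slide and day cannot be told apart. EPO day 6 was level with EPO Sca1-low (median 0.02, 21 of 39 above 0 against 50.2% of all genes) and above EPO Sca1-high (median 0.63, 38 of 39 against 56.0%, with 7 members or 17.9% at least 2-fold higher against 11.5% of all genes). Day 6 of the IL-3/GM-CSF arm lay below its Sca1-low cells (median -0.40, 2 of 39 above 0 against 40.5%, with Pold2 at -1.48, Pola2 at -1.19, Prim2 at -1.04 and Cdc6 at -1.02 against 11.9% of all genes 2-fold lower) and by -0.18 below its Sca1-high cells. For all genes the IL-3/GM-CSF median against Sca1-high cells was -0.09. Combined day 6 lay between its fractions, by -0.21 below Sca1-low and by 0.46 above Sca1-high (all genes -0.07 and 0.17). Under median centring the first of these combined medians turns to 0.41, where the median of all genes moves from -0.07 to 0.55.

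Averaged over populations, no treatment effect on a member passed the threshold. An additive limma model over all 10 arrays, which takes the unevenness of a treatment between populations as its error, called 0 of 39 members in each of its 7 contrasts between treatments, with untreated cells or between days, against at most 0.00704% of all genes in either direction. The lowest adjusted p of a member was 0.15, for Cdc6 (-1.09, SE 0.26) and Ung (-1.60, SE 0.39) between the combined and the EPO arm. At an unadjusted p under 0.05, 11 members were lower in the combined than in the EPO arm, against 15.3% of all genes, and none was higher, against 8.33%. For EPO against IL-3/GM-CSF 5 were higher, against 10.4%, and none lower, against 8.47%. For EPO against untreated cells Gins3 alone was higher (0.91, SE 0.34, adjusted p = 0.46), against 5.65%, and none lower, against 4.86%. For day 6 against day 3 it was Rfc1 alone (0.62, SE 0.20, adjusted p = 0.43), against 4.63%, with none lower, against 5.01%. No member passed even this threshold for IL-3/GM-CSF against untreated cells (3.51% of all genes higher and 3.25% lower), for the combination against untreated cells (2.21% and 2.53%) or for the combination against IL-3/GM-CSF (0.993% and 0.845%).

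Genes of the same pathway outside the 39 were also read from fixed lists. Of 30 other replication genes 4 rose in Sca1-low cells (13.3%, against 4.09% of all genes), none fell (against 6.98%), and the median was 0.37. They were Orc5 (1.89, SE 0.21, adjusted p = 0.013) and Orc2 (1.37, SE 0.24, adjusted p = 0.035), both subunits of the origin recognition complex, Pole3 (1.26, SE 0.21, adjusted p = 0.030), a histone-fold subunit of polymerase epsilon, and Recql4 (1.17, SE 0.22, adjusted p = 0.040), a helicase used at origins. Orc5 lay at -0.20 in untreated cells, 1.52, 1.61 and 1.60 in Sca1-low cells of the EPO, IL-3/GM-CSF and combined arms, -0.12, -0.50 and -0.31 in the Sca1-high cells, and 2.02, -0.56 and -0.42 at day 6. Its Sca1-low values stood together far above the rest, and only EPO day 6 shared that level. Of 26 other nucleotide supply genes Mthfd1, a folate enzyme that feeds purine and thymidylate synthesis, rose (1.5, SE 0.26, adjusted p = 0.033), and the median was 0.59. This 1 call is 3.85% of the list, near the 4.09% of all genes. All calls in these lists were lost without the IL-3/GM-CSF pair, where 0 of 14204 genes were called. They were lost too in the additive model on all 10 arrays, where 0 genes were called between fractions. Dctd (1.1) and Ppat (0.98) had the next largest positive differences, and Samhd1, which degrades deoxynucleotides, had -1.06 (adjusted p = 0.16).

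Among 16 E2F and RB family regulators, Ccne1 and E2f2 rose and Rbl2 fell, which is 12.5% higher and 6.25% lower against 4.09% and 6.98% of all genes. Ccne1, cyclin E1, which drives entry into S phase, rose by 1.81 (SE 0.25, adjusted p = 0.019), a larger difference than that of any of the 39 members. It lay at 4.01 in untreated cells, 6.10, 5.29 and 5.04 in Sca1-low cells of the EPO, IL-3/GM-CSF and combined arms, 4.02, 3.95 and 3.02 in the Sca1-high cells, and 6.02, 4.00 and 3.91 at day 6. Ccne1 was thus high where Cdc6 was high and lowest in the same combined Sca1-high array. E2f2, an activating E2F, rose by 1.35 (SE 0.23, adjusted p = 0.033), and Rbl2, the p130 pocket protein of resting cells, fell by 1.15 (SE 0.20, adjusted p = 0.036). Rb1 (1.35) and E2f4 (1.17) missed the threshold, each at an adjusted p of 0.055. The median of these regulators was 0.26, against 0.17 for all genes, and 12 of 16 were above 0, against 60.1% of all genes. The calls of Ccne1, E2f2 and Rbl2 were lost without the IL-3/GM-CSF pair and in the additive model on all 10 arrays, where no gene was called between fractions.

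Mitosis genes gave a different picture under EPO, in 1 pair of arrays and under 1 scaling. None of 30 was called in the fraction comparison, their median was 0.40, and 29 mean differences were above 0, against 60.1% of all genes. At an unadjusted p under 0.05, 5 were higher (16.7%), near the 17.0% of all genes. Mad2l1 of the spindle checkpoint had the largest difference (0.90, adjusted p = 0.060), ahead of Cdc20 (0.83), Ube2c (0.66) and Anln (0.64). Under EPO, 17 of 30 mitosis genes were above 0 with a median of 0.29, while 35 of 39 replication members were, with a median of 0.57. Of all genes 56.8% were above 0 there. The members' EPO median went as low as 0.28 under other settings, for which mitosis medians were not taken. In the IL-3/GM-CSF arm the order was the other way, with medians of 0.34 for mitosis genes and 0.22 for members, and the difference between the lists was not tested.

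How large the members' shift was depended on how the arrays were scaled, and its direction relative to other genes did not. Quantile normalization gave median fraction differences of 0.28, 0.20 and 0.44 for EPO, IL-3/GM-CSF and the combination, against all-gene medians of -0.01, 0.04 and 0.07, and 33 of 39 mean differences stayed above 0. It gave 0.21 for EPO Sca1-low and 0.27 for EPO day 6 against untreated cells, in place of 0.54 and 0.61. Centring each array on its median put the median of all genes below untreated cells on every treated array except EPO day 6 and combined day 6, at -0.15 for EPO Sca1-low and -0.51 for combined Sca1-high where it had been 0.18 and -0.19, and turned combined Sca1-low from 0.20 to -0.34 against an all-gene median of -0.46. Relative to all genes, that array stood 0.12 higher under both scalings and 0.21 higher under quantile normalization.

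**Figure D4:**
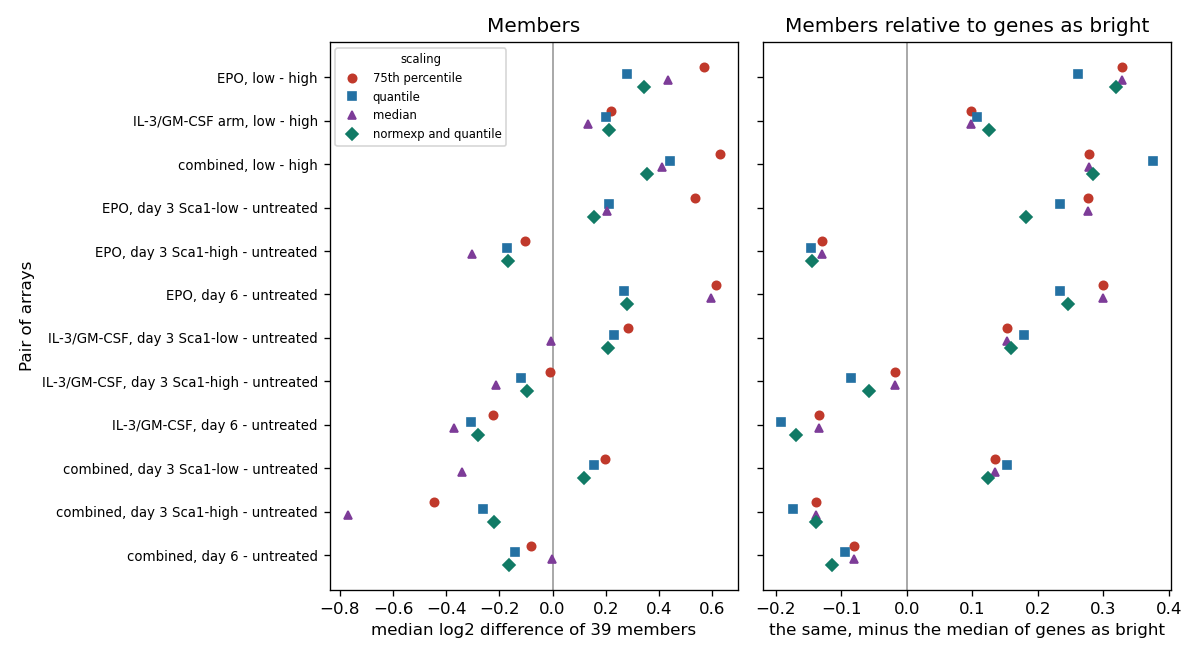
Median log2 difference of the 39 members for the 3 fraction comparisons and the 9 comparisons with untreated cells under 4 scalings of the arrays. The left panel shows the plain medians, where combined Sca1-low changes sign under median centring (0.20 to -0.34), and the right panel shows them minus the median of the 3339 genes as bright, where each comparison keeps its sign.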

How the data were processed

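Total RNA of EML-C1 cells was labelled with Cy3 and hybridised to 1-colour Agilent arrays, per the labels' protocols. The authors deposited spot intensities from Agilent Feature Extraction 11.0.1.1, per the submitters' processing notes, with the processed signal background-corrected by the software, per the file headers. Of 62976 spots per array 59305 were not controls. Outlier spots were left out, repeat spots averaged (SD 0.04 to 0.08 log2 by array), and probes named through a RefSeq table, which named 27235 of 55681 probes. The number of arrays limits the precision.

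The log2 processed intensity was taken relative to each array's 75th percentile. Tested genes had signals well above background on 2 or more arrays, and the model was limma 3.58.1 (R 4.3.3), with Benjamini-Hochberg adjustment over all 14204 genes at 0.05. The code was run on simulated data with equal noise for every gene and effects larger than the members' median shift. That run does not check the p-values given here. The fraction comparison used the 6 day 3 arrays with treatment as a block (2 residual degrees of freedom). Treatments and days used all 10 arrays in an additive model (4 residual degrees of freedom). With 1 array per condition, p-values measure unevenness across treatments or populations and not replicate error. The members and lists were chosen with earlier results of these data known. Every member could be named. Values on all arrays are given for the 10 largest fraction differences, the 10 widest and the 3 narrowest ranges, and for the other pathway lists the 4 largest differences, while marker lists are given by counts. Rbl2 and the values of Orc5 and Ccne1 on all arrays were added after they were seen. Alternatives were quantile normalization, median centring, the deposited series matrix, other filters on dim genes, the mean of probes, outlier spots kept, slide as a block and leaving out arrays. Normexp on median signals, with an offset of 50, and the set of genes as bright were added after seeing the data.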

Additional observations from a re-analysis of the deposited data

How the results depend on the processing

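In the paired fit 2 members were called between fractions, beside 581 of 14204 genes called higher. Under quantile normalization and median centring it was 1 member (Cdc6), beside 493 and 422 genes. Under normexp there were 3 (Cdc6, Prim2 and Rfc4), beside 829 genes. With no filter on dim genes 0 members were called, beside 314 of 20465 genes. With genes above background on all 10 arrays there were 10, where 1347 of 10617 genes were called higher. In the additive model on all 10 arrays 0 members and 0 genes were called. With slide as a block that model gave 581 genes higher and 992 lower, the counts of the paired fit. There the fraction contrast rests on the same pair differences, so the match was fixed by the design and is no separate check. With 1 treatment pair left out, Cdc6 alone was called without the EPO pair (899 genes higher). No member was called without the IL-3/GM-CSF pair (0 genes) or the combined pair (109 genes). By replicate number, no paired analysis was possible because each array carries the number 1. The pairs used were the fractions of a treatment, which the fit takes as a block. Normexp on mean signals was not run, since median signals were used in its place.

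Median differences from untreated cells moved under quantile normalization to 0.21 (EPO Sca1-low), -0.12 (IL-3/GM-CSF Sca1-high), -0.26 (combined Sca1-high) and 0.27 (EPO day 6). Under median centring they moved to 0.20 (EPO Sca1-low), -0.30 (EPO Sca1-high), -0.0056 (IL-3/GM-CSF Sca1-low), -0.21 (IL-3/GM-CSF Sca1-high), -0.34 (combined Sca1-low), -0.77 (combined Sca1-high) and -0.37 (IL-3/GM-CSF day 6), and under normexp to 0.16 (EPO Sca1-low), -0.22 (combined Sca1-high) and 0.28 (EPO day 6). Fraction medians moved under quantile normalization, median centring and normexp to 0.28, 0.44 and 0.34 for EPO and to 0.44, 0.41 and 0.36 for the combined arm. Member differences from untreated cells of at least 2-fold, 15 of 351, became 8 under quantile normalization, 8 under normexp and 67 at 1.5-fold. Those between fractions, 14 in all, became 6, 7 and 5 under quantile normalization, median centring and normexp and 52 at 1.5-fold. The causes of these moves were not tested.

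Of 468 fraction differences of single members under 12 settings, 13 changed sign: Mcm6 (-0.029 and -0.053), Mcm7 (-0.047 and -0.031), Lig1 (-0.025 and -0.060), Rpa1 (-0.18 and -0.15) and Rfc2 (-0.050) and Pcna (-0.0049) under quantile normalization or normexp, Rpa1 under median centring (-0.050), and, without the IL-3/GM-CSF pair, Mcm3 and Pola1, whose ranges over the 3 pairs left out were -0.088 to 0.085 and -0.0088 to 0.60. Of 45 medians between treated arrays under other scalings, 27 moved by 0.1 or more and 2 had the opposite sign. The additive model on all 10 arrays called 0 members for treatments and days under every setting run, slide as a block and each treated array left out included. The count over all genes varied with the setting. With slide as a block, 358 genes were higher and 683 lower for EPO against untreated cells. For the combination against EPO these were 581 and 284, for day 6 against day 3 they were 456 and 199, and for EPO against IL-3/GM-CSF both were 0. Without EPO day 6, the day contrast gave 587 higher and 202 lower. Dim signal limited no member, since all were above background on all 10 arrays.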
